A study of Danio rerio with 6 samples.

Results

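The cathepsin S, L and K genes of zebrafish were described in macrophages sorted from larvae with and without a mutation of the chemokine receptor gene cxcr3.2. The 7 genes were taken by their Ensembl identifiers from the 31962 genes counted in each library. They are ctss2.2 (ENSDARG00000013771), ctss2.1 (ENSDARG00000074656), ctss1 (ENSDARG00000036940), ctsl.1 (ENSDARG00000003902), ctsla (ENSDARG00000007836), ctslb (ENSDARG00000074306) and ctsk (ENSDARG00000040251). They were chosen by gene family and with their measured differences between mutant and wild type in view, so these differences are given below as a description, without p-values. How many of them passed the test over all genes is printed once, beside the share of all genes that did, and supports nothing.

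The libraries fall into 2 genotypes of 3 libraries each, cxcr3.2-/- (mutant) and cxcr3.2+/+ (wild type), and each library was made from its own pool of 150 to 200 larvae. Both genotypes carry the mpeg1:mCherryF reporter, a membrane-bound red fluorescent protein under the promoter of the macrophage gene mpeg1, and red cells were sorted for polyadenylated RNA. The larvae were 6 days old after fertilisation in one field of the labels and 5 days in another. A library is therefore a mean over the cells of many pooled animals, whatever cell types the promoter and the gate let through, and no label reports a treatment or an infection. The comparison addresses how the RNA of these sorted cells differs with the receptor genotype.

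Total counts were 6239470 to 9607009 per library. The mutated gene cxcr3.2 was read at 189.7, 154 and 174 CPM in the wild type and 167, 203 and 153 CPM in the mutant, so its level does not check the genotype labels. CPM, the unit of all levels below, is the number of reads per 1000000 after scaling by TMM factors. The 19 matched macrophage markers summed to between 5818 and 9897 CPM. The 19 matched epidermal markers summed to 5479 to 6155 CPM in the wild type and to 4540 to 4811 CPM in the mutant, lower there like ctss2.2 and ctss2.1. Of these 19, 15 had negative log2 fold changes and 0 were called (2 at an unadjusted p under 0.05, both lower, and DESeq2 called 1). Of all 16499 tested genes, 1162 were higher and 1183 lower at an unadjusted p under 0.05. The 8 matched neutrophil markers summed to 1031 to 1314 CPM in the wild type and 1087 to 2198 CPM in the mutant, which overlap. All 8 had positive log2 fold changes, the sign of ctsl.1 and ctsk, with a median of 0.53. Of these 8, 0 were called, 3 had an unadjusted p under 0.05, all higher, and DESeq2 called 1. The part of epidermal or neutrophil RNA in the cathepsin differences was not tested. Muscle markers (24 matched) reached 2090 CPM in mutant replicate 2 against 582 to 643 CPM elsewhere, and lens markers (9 matched) 73.9 CPM against 3.89 to 6.46 CPM; without that library ctss2.2 had a log2 fold change of −3.05 and ctsl.1 of 1.36. Gut and liver markers (21 matched) summed to 2674 CPM in wild type replicate 1 against 959 to 1295 CPM elsewhere. Without that wild type library the log2 fold change was −3.16 for ctss2.2, 1.21 for ctsl.1, 0.28 for ctsk and −0.02 for ctsla. The part of these tissues in the cathepsin differences was not tested. Fewer cells of a type and less RNA per cell cannot be told apart in such pools. Heat shock genes took 9.94%, 21.2% and 12.5% of counts in replicates 1, 2 and 3 of the wild type, and 1.93%, 1.87% and 2.3% in those of the mutant, over 22 genes.

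Cathepsins S, L and K are cysteine proteases of the papain family. They are made as inactive proenzymes, sorted to endosomes and lysosomes, and activated there at acid pH. In mammals, cathepsin S cuts the invariant chain from MHC class II molecules in antigen-presenting cells and keeps activity at neutral pH, cathepsin L degrades proteins in the lysosomes of most cells, and cathepsin K is the collagen-degrading protease of osteoclasts. Cystatins inhibit these enzymes, and legumain takes part in processing several of them. In zebrafish, ctslb is known as a gene of the hatching gland, which dissolves the egg envelope.

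The genes did not all differ in the same direction between the genotypes. Of the 7 genes, ctss2.2 was 8.35-fold and ctss2.1 2.4-fold lower in mutant libraries, ctsl.1 was 2.43-fold and ctsk 1.42-fold higher, and ctsla differed by 1.05-fold. For ctss1 the mean was 2-fold higher in the mutant but the libraries overlapped, and ctslb had no read at all. After the filter on low counts 6 of the 7 genes were kept in the fit over 16499 genes (edgeR's quasi-likelihood test), and ctslb was not. That fit called 2 of the 6, ctss2.2 as lower and ctsl.1 as higher, against 1.19% of all tested genes in either direction; since this contrast was used in choosing the genes, nothing is read from the share. The libraries of the genotypes did not overlap for 4 of the 6, against 20.6% of all tested genes. Of these, 2 were higher, as were 10.2% of tested genes, and 2 were lower, as were 10.4%.

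**Figure D1:**
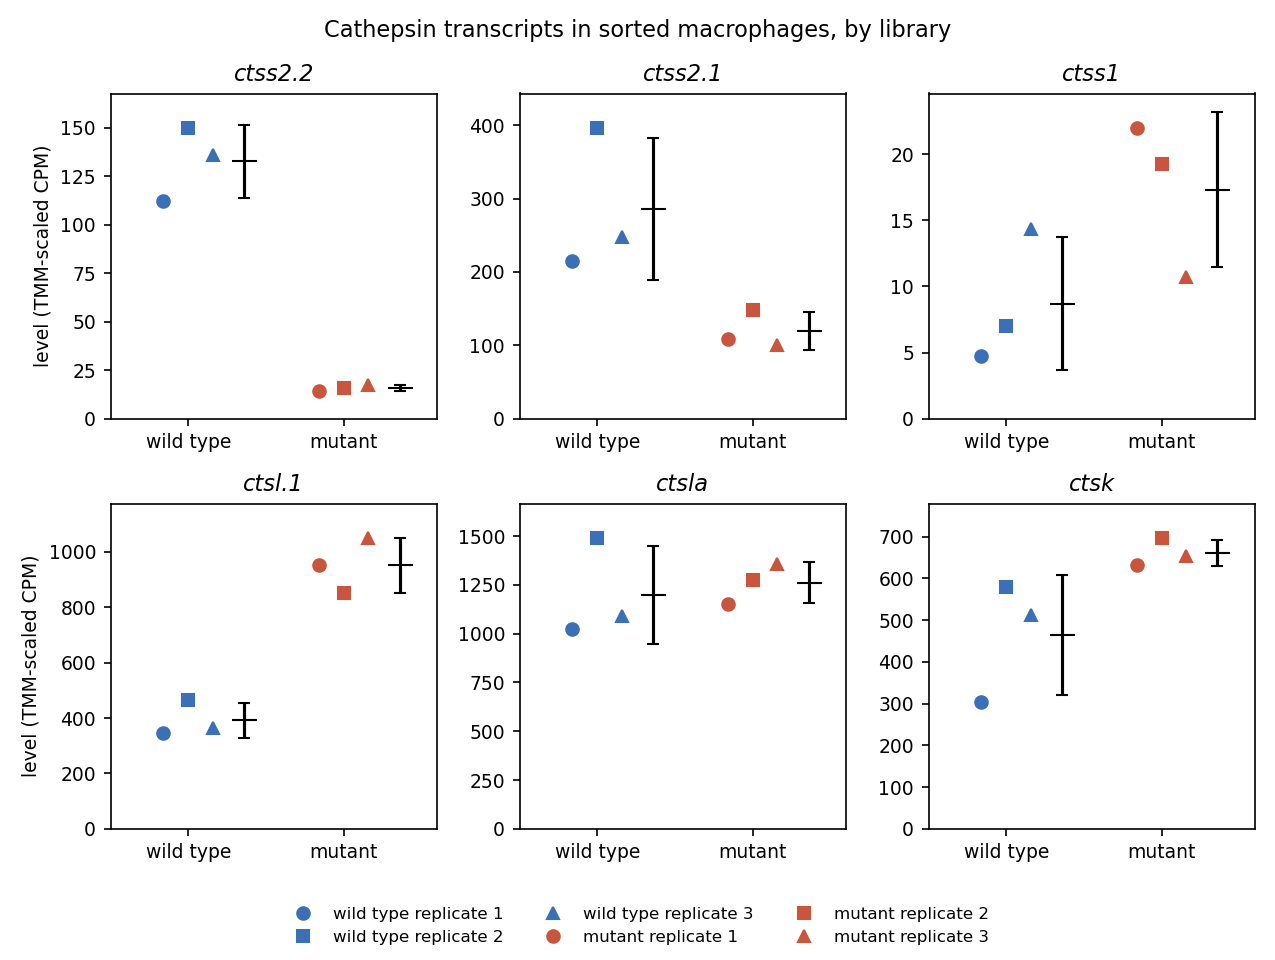
Levels of 6 cathepsin genes in TMM-scaled CPM (vertical axes, each starting at 0) in the 3 wild type libraries (blue) and the 3 mutant libraries (red); marker shapes give the replicate number, and the black bars are mean ± SD over 3 libraries. The mutant libraries lie below all wild type libraries for ctss2.2 and ctss2.1 and above them for ctsl.1 and ctsk, and the genotypes overlap for ctss1 and ctsla.

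Among the cathepsin S genes, ctss2.2 measured 113, 150 and 136 CPM in replicates 1 to 3 of the wild type and 14.5, 15.8 and 17.3 CPM in those of the mutant. The highest mutant library was far below the lowest wild type library, and neither group spread widely. The means were 133 ± 18.8 CPM for wild type libraries against 15.9 ± 1.42 CPM for mutant libraries (SD, n = 3 each). The log2 fold change was −3.06 (SE 0.18), mutant over wild type as throughout. In raw reads, mutant libraries still held 116 to 184 reads of ctss2.2, so its transcript was detected in each of them.

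The second gene of this pair, ctss2.1, measured 215, 396 and 248 CPM in the wild type and 109, 148 and 99.8 CPM in the mutant. Every mutant library was again below every wild type library, but wild type replicate 2 stood well above the other two. The means were 286 ± 96.4 CPM and 119 ± 25.9 CPM, a log2 fold change of −1.26 (SE 0.25), which was −0.95 without wild type replicate 2. Both genes were lower in the mutant, and ctss2.2 was lower by the larger factor.

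That inequality can be read within each library, where the scaling between libraries plays no part. Of the reads of ctss2.1 and ctss2.2 together, ctss2.2 held 34.4%, 27.5% and 35.4% in wild type replicates 1 to 3. It held 11.7%, 9.64% and 14.8% in the mutant replicates. The shares of the genotypes did not overlap, with means of 32.4 ± 4.33% and 12 ± 2.58%. For each read of ctss2.2 there were 1.82 to 2.64 reads of ctss2.1 in wild type libraries and 5.77 to 9.37 in mutant libraries. These are shares of reads, not of transcripts, because read numbers were not divided by transcript length.

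How the counting treated reads that match both genes is not given in the sources used here, so the split between these copies is uncertain. Their sum is free of how shared reads were divided between them, but not of whether such reads were dropped or counted for both. Summed, ctss2.1 and ctss2.2 measured 327, 545 and 384 CPM for wild type libraries against 123, 164 and 117 CPM for mutant libraries, replicates 1 to 3 in order. The sums of the genotypes did not overlap. Their log2 fold change was −1.63 (SE 0.22).

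The remaining cathepsin S gene, ctss1, behaved differently and was read little. It had 39, 49 and 83 reads in replicates 1 to 3 of the wild type and 220, 141 and 114 reads in those of the mutant, that is 4.71, 7.03 and 14.3 CPM against 22, 19.3 and 10.7 CPM. Wild type replicate 3 lay above mutant replicate 3, so the groups overlapped in CPM. The means were 8.69 ± 5.02 CPM and 17.3 ± 5.86 CPM, with a log2 fold change of 1 (SE 0.46) that was 0.71 without wild type replicate 1 and 1.56 without wild type replicate 3. As a share of the reads of the 3 cathepsin S genes, ctss1 took 1.42%, 1.27% and 3.6% in the wild type and 15.1%, 10.5% and 8.39% in the mutant. These shares did not overlap, and both the higher mean of ctss1 and the lower counts of ctss2.1 and ctss2.2 enter them. All 3 cathepsin S genes summed to 427 ± 113 CPM for wild type libraries against 152 ± 28.5 CPM for mutant libraries (log2 fold change −1.49, SE 0.21).

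**Figure D2:**
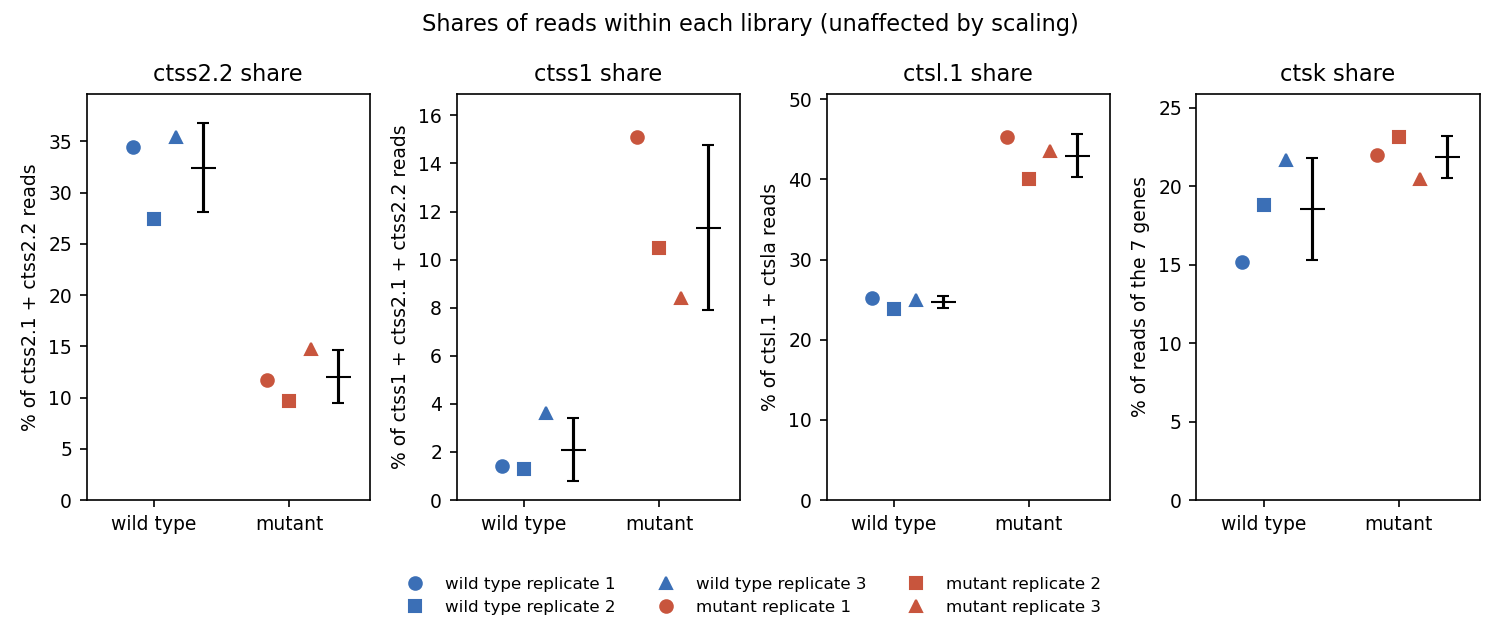
Shares of reads within each library, in percent (vertical axes, each starting at 0), for ctss2.2 among ctss2.1 and ctss2.2, for ctss1 among the 3 cathepsin S genes, for ctsl.1 among ctsl.1 and ctsla, and for ctsk among all 7 genes; blue is wild type, red is mutant, marker shapes are replicate numbers and black bars are mean ± SD over 3 libraries. The ctss2.2 share is lower and the ctsl.1 share higher in every mutant library than in any wild type library, while the ctsk shares overlap.

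Among the cathepsin L genes, ctsl.1 measured 346, 466 and 363 CPM in replicates 1 to 3 of the wild type and 952, 852 and 1049 CPM in those of the mutant. The lowest mutant library was above the highest wild type library by a wide margin. The means were 391 ± 65 CPM and 951 ± 98.2 CPM, a log2 fold change of 1.28 (SE 0.15). Its paralog ctsla measured 1022, 1488 and 1091 CPM in the wild type and 1150, 1274 and 1359 CPM in the mutant. Here the mutant libraries fell inside the range of the wild type libraries. The means were 1201 ± 251 CPM and 1261 ± 105 CPM, with a log2 fold change of 0.07 (SE 0.16, 95% interval −0.28 to 0.42) whose sign was negative (−0.02) without wild type replicate 1.

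The contrast between these paralogs also held within each library. Of the reads of ctsl.1 and ctsla together, ctsl.1 took 25.3%, 23.8% and 24.9% in wild type replicates 1 to 3, a narrow range. It took 45.3%, 40.1% and 43.6% in the mutant replicates. The means were 24.7 ± 0.75% and 43 ± 2.65%, and there were 3.05 ± 0.125 reads of ctsla for each read of ctsl.1 in the wild type against 1.33 ± 0.147 in the mutant. Within the wild type, both genes were highest in replicate 2, and their ratio varied less than either level. The cathepsin L genes summed to 1592 ± 316 CPM for wild type libraries against 2212 ± 170 CPM for mutant libraries (log2 fold change 0.47, SE 0.15).

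No read was assigned to ctslb in any of the 6 libraries. A count of 0 allows up to 3 reads, which corresponds to 0.282 to 0.518 CPM per library and covers counting error only. In the RefSeq annotation of the GRCz12tu assembly, 8 genes of the chromosome of ctslb (itself included) carry a ctslb symbol or ctsl as a synonym and could be matched to the counts. Together these 8 genes held 7 reads over all 6 libraries, and 4 of them had none. Here too the treatment of reads that match several copies is unknown. Of the hatching enzymes of the marker list, he1.3 and hce2l1 had no read either, and all 5 of them summed to 0.173 to 1.15 CPM for wild type libraries against 0 to 1.8 CPM for mutant libraries. This cluster and the set of hatching enzymes were drawn up after the counts had been seen.

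Cathepsin K, ctsk, measured 304, 580 and 512 CPM in replicates 1 to 3 of the wild type and 633, 696 and 654 CPM in those of the mutant. All mutant libraries were above all wild type libraries, but by little, since wild type replicate 2 came close to mutant replicate 1. The means were 465 ± 144 CPM and 661 ± 31.8 CPM, a log2 fold change of 0.51 (SE 0.21), which was 0.28 without wild type replicate 1, its lowest library. The spread was uneven, with an SD of 30.9% of the mean in the wild type and 4.82% in the mutant. As a share of the reads of the 7 genes, ctsk took 15.2% to 21.7% in the wild type and 20.5% to 23.1% in the mutant, and these ranges overlap.

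Because cathepsin K marks osteoclasts and some matrix cells, their markers are given beside it. The 11 matched osteoclast markers, among them the proton pump subunit gene TCIRG1, summed to 1166 to 1247 CPM for wild type libraries against 1194 to 1399 CPM for mutant libraries. None of the 10 tested was called, and DESeq2 called 0. Of the 10, 6 had positive log2 fold changes, and their median was 0.21, of the same sign as ctsk. At an unadjusted p under 0.05, 2 were higher (ocstamp and ACP5) and 1 lower (tnfrsf11a), against 1162 and 1183 of all 16499 tested genes. The 21 matched genes of fibroblasts, cartilage and bone summed to 927 to 1285 CPM and 770 to 1001 CPM, which overlap. Of the 18 tested, 15 had negative log2 fold changes, and the median of all 18 was −0.43, opposite in sign to ctsk. None was called with edgeR, 4 had an unadjusted p under 0.05, all lower, and DESeq2 called 2 lower. The bone gene bglap was at 0, and col1a1a, the collagen I gene with the most reads of the list, was at 229 CPM and 234 CPM on average. Among the 4 was an entry of the cartilage collagen gene COL2A1 (ENSDARG00000069093), at 86.1 ± 41.8 CPM and 36.6 ± 2.52 CPM. Another was the growth factor receptor gene PDGFRA, at 15.6 ± 1.28 CPM and 4.61 ± 3.27 CPM. Both were picked with their values in view. A further COL2A1 entry (ENSDARG00000011407) overlapped, at 53.1 ± 26 CPM in the wild type and 50.9 ± 12.6 CPM in the mutant. Its log2 fold change was −0.06 (edgeR adjusted p = 0.972). The part of these marker genes in the level of ctsk was not tested.

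Seen together, the 7 genes summed to 2484 ± 551 CPM for wild type libraries against 3025 ± 155 CPM for mutant libraries, and the groups overlapped (log2 fold change 0.28, SE 0.15). That value was 0.16 without wild type replicate 1 and 0.48 without wild type replicate 2. What differed more was the composition. The cathepsin S genes held 17.1 ± 0.71% of these reads in the wild type and 5.06 ± 1.05% in the mutant. The share of ctsl.1 was 15.9 ± 1.18% in the wild type and 31.4 ± 2.66% in the mutant, while that of ctsla was 48.5 ± 2.43% and 41.6 ± 1.49%. None of these 3 shares overlapped between the genotypes. They are parts of the same total, so the higher counts of ctsl.1 enter the lower share of ctsla. The level of ctsla itself overlapped (log2 fold change 0.07). In reads, ctsla held the most of the 7 in every library. Transcript lengths were not used here, so levels are not ranked between genes.

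**Figure D3:**
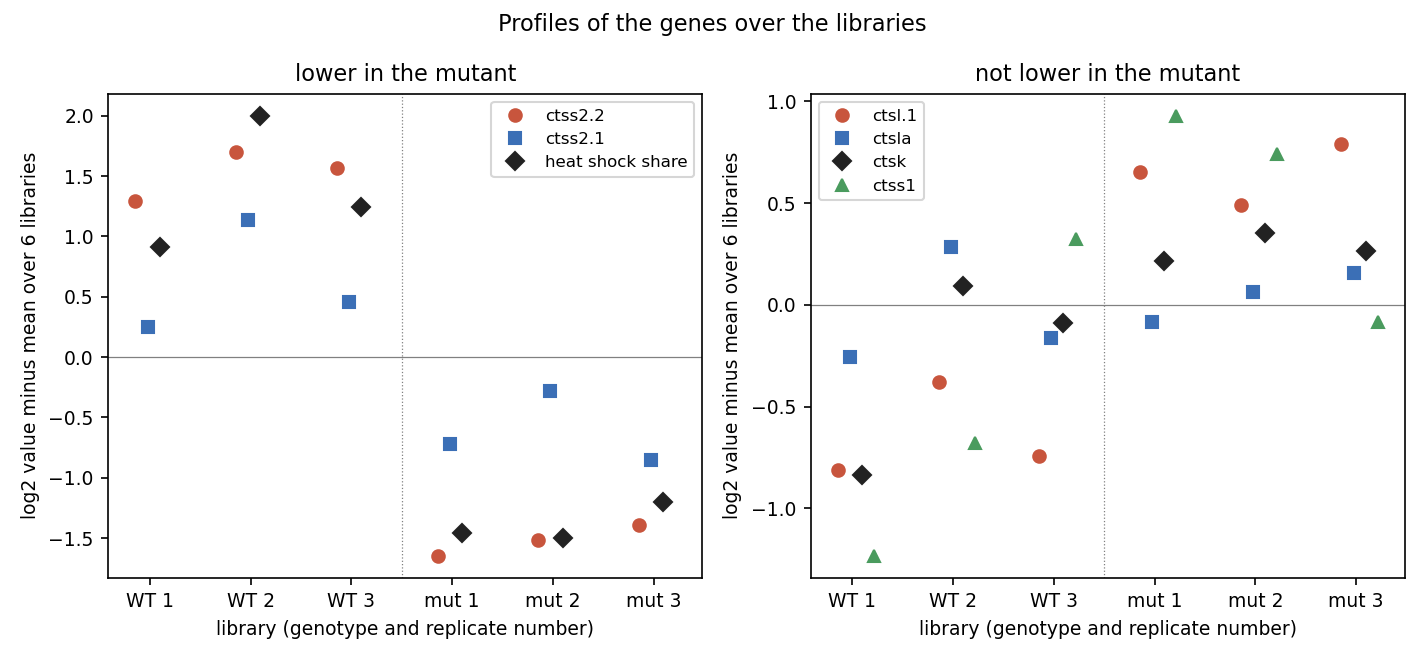
Log2 level of each gene minus its mean over the 6 libraries (vertical axis, log2 units) for each library (horizontal axis), with ctss2.2, ctss2.1 and the log2 heat shock share of counts on the left and ctsl.1, ctsla, ctsk and ctss1 on the right; the dotted line separates the genotypes. Most of the profiles of ctss2.2 and of the heat shock share is the difference between the genotypes, and the share is not TMM-scaled. Within the mutant, ctss2.2 is lowest in replicate 1 and the share in replicate 2. Within the wild type all genes shown except ctss1 are highest in replicate 2 at these TMM-scaled levels.

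The heat shock share and the levels of these genes were compared library by library. In the wild type the share was lowest in replicate 1 and highest in replicate 2. In TMM-scaled CPM, 5 of the 6 measured cathepsin genes, all except ctss1, had the same order of their 3 wild type libraries. The TMM factors ran the other way, at 0.98, 0.83 and 0.929 in replicates 1 to 3, so this order depends in part on the scaling. Per total counts, ctss2.1, ctsla and ctsk kept this order. There ctss2.2 was highest and ctsl.1 lowest in replicate 3, so neither of these kept it. Among the mutant libraries the share was lowest in replicate 2 and highest in replicate 3, and only ctsl.1 had that order. Among the mutant libraries ctss2.2 was lowest in replicate 1, and ctss2.1 was lowest in replicate 3. The share was lower in the mutant than in the wild type, as were ctss2.2 and ctss2.1, while ctsl.1 and ctsk were higher. When wild type replicate 2, where that share was highest, was left out, the log2 fold change was −2.96 for ctss2.2, 1.43 for ctsl.1, 0.26 for ctsla and 0.7 for ctsk. With scaling factors computed without the heat shock genes, ctss2.2 was at −3.05 and ctsl.1 at 1.29. The part of heat shock in these differences was not tested.

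The genes with library profiles nearest to that of ctss2.2 included partners of heat shock chaperones. Nearness was measured as the root-mean-square distance of centred log2 CPM over the 6 libraries, among 12081 named genes. Nearest was STIP1, which links the chaperones Hsp70 and Hsp90 (distance 0.14 log2 units, Pearson r 0.996), at 1132, 1973 and 1388 CPM for wild type libraries against 176, 198 and 197 CPM for mutant libraries, replicates 1 to 3 in order. The peptidase gene NLN (0.22), EDRF1 (0.27), HSPBP1, a regulator of Hsp70 (0.27), and the proteasome-binding gene ZFAND2B (0.27) followed. Nearest to ctsl.1 were the SNARE gene VTI1B (0.055, r 0.997), TMEM53 (0.099), apoeb (0.13), the adiponectin receptor gene ADIPOR1 (ENSDARG00000042717, 0.13) and rorca (0.17). Of these, apoeb, an apolipoprotein E gene strongly read in macrophages, measured 2066, 2847 and 2302 CPM for wild type libraries against 4725, 4673 and 5528 CPM for mutant libraries, replicates 1 to 3 in order. VTI1B, TMEM53 and rorca were little read. Their means were 4.02, 1.23 and 3.84 CPM in the wild type and 9.86, 3.36 and 8.09 CPM in the mutant. NLN, near ctss2.2, was little read in the mutant, at 1.19 CPM against 10.1 CPM in the wild type. Most of each profile is the difference between the genotypes, and with 6 libraries in 2 groups such nearness is only a description.

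The macrophage markers did not move as one. Of the 19 tested, 2 were called higher (apoeb and SPI1) and 0 lower, against 0.309% and 0.885% of all tested genes. At an unadjusted p under 0.05, 7 were higher and 2 lower, against 1162 and 1183 of all 16499 tested genes. DESeq2 called 5 of them higher and 1 lower, and 437 and 509 over all genes. The 2 lower genes at an unadjusted p under 0.05 were MPEG1 (ENSDARG00000043093), at 116, 134 and 103 CPM for wild type libraries against 27.5, 55.3 and 64.5 CPM for mutant libraries, and the receptor gene csf1rb, at 123 ± 13.3 CPM and 73.7 ± 28.7 CPM, neither called with edgeR (adjusted p = 0.0905 and 0.301). The sum of the list was 5818 to 7203 CPM for wild type libraries against 9459 to 9897 CPM for mutant libraries, in which apoeb held 2405 and 4975 CPM on average. Without apoeb, left out after its values were seen, the sums were 3516 to 4356 CPM and 4369 to 4973 CPM. The sums were thus higher in the mutant like ctsl.1 and ctsk, while this MPEG1 entry and csf1rb were lower like ctss2.2 and ctss2.1. The MPEG1 entry with the most reads (ENSDARG00000055290) overlapped, at 334 ± 55.9 CPM and 299 ± 42 CPM (edgeR adjusted p = 0.752). A further MPEG1 entry (ENSDARG00000078569) and csf1ra overlapped too (edgeR adjusted p = 0.796 and 0.513). The part of macrophage content in the cathepsin differences was not tested.

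On the chromosome, 3 of the genes stand in a row. In the RefSeq gene order of GRCz12tu, which is a different assembly from the GRCz10 genome of the deposited counts, no other protein-coding gene lies between ctsk and ctss2.1 or between ctss2.1 and ctss2.2. These direct neighbours had log2 fold changes of 0.51, −1.26 and −3.06 in that order. For each read of ctss2.2 there were 2.7 to 3.87 reads of ctsk in wild type and 37.8 to 43.9 in mutant libraries. The mutated gene cxcr3.2 is on the same chromosome in that annotation, with 402 protein-coding genes between it and ctsk.

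The genes around the cathepsins were examined from the same fit, a description added after the data had been seen. Of the 20 nearest protein-coding genes around ctss2.2, 16 could be matched and 11 tested. None of the 11 was called (2 had an unadjusted p under 0.05, and DESeq2 called 2), and their log2 fold changes ran from −1.71 to 0.69. The closest of these to a call was mcl1b, an anti-apoptotic Bcl2 family gene, at 638 CPM for wild type libraries against 947 CPM for mutant libraries (log2 fold change 0.57, SE 0.13, edgeR adjusted p = 0.0763). None of 13 tested neighbours of ctsl.1 was called (2 at an unadjusted p under 0.05, DESeq2 1), and the closest was id3, at 87.7 CPM and 46.7 CPM (log2 fold change −0.91, edgeR adjusted p = 0.0666). None of 12 around ctss1 was called (3 and 2), and the closest was mcl1a, a paralog of mcl1b, at 1953 CPM and 1007 CPM (log2 fold change −0.96, edgeR adjusted p = 0.0514). The neighbours named here were picked after their values were seen. For comparison, 1162 of all 16499 tested genes were higher and 1183 lower at an unadjusted p under 0.05. Around ctsla 1 of 8 was called (1 at an unadjusted p under 0.05, DESeq2 1), against 1.19% of all tested genes in either direction. It was the chromatin remodelling gene smarca2 (log2 fold change −1.73 with an SE of 0.22, edgeR adjusted p = 0.00959). That gene measured 201, 179 and 221 CPM for wild type libraries against 43.2, 61.3 and 77 CPM for mutant libraries, replicates 1 to 3 in order.

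Genes that work with these proteases were tested in the same fit. In the 6 lists of other cathepsins, cystatins, sorting and processing factors, class II pathway genes and transcription factors, 50 genes were tested, of which 1 was higher and 1 lower in the mutant, where 0.309% and 0.885% of all tested genes were called in these directions (51 higher and 146 lower; with total-count scaling the balance turned to 217 higher and 117 lower). At an unadjusted p under 0.05, 6 of the 50 were higher and 4 lower, against 1162 and 1183 of all 16499 tested genes. The median log2 fold change of the 50 was −0.05, and that of all tested genes −0.03.

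The other cysteine cathepsins showed no call. None of the 7 tested genes passed with edgeR, none had an unadjusted p under 0.05 and DESeq2 called 0, and their median log2 fold change was −0.14. CTSC, which activates granule proteases in mammals, measured 453 ± 73 CPM for wild type libraries against 411 ± 81.5 CPM for mutant libraries (log2 fold change −0.14 with an SE of 0.18, edgeR adjusted p = 0.814). The carboxypeptidase CTSZ measured 480 ± 107 CPM and 562 ± 46.7 CPM (log2 fold change 0.23 with an SE of 0.17, edgeR adjusted p = 0.64). CTSB (ENSDARG00000055120) measured 169 ± 15.3 CPM and 248 ± 137 CPM, a wide spread in the mutant (adjusted p = 0.499). The further paralog ctsll, close to cathepsin L by name, was at 2.1 ± 1.16 CPM and 0.915 ± 1.33 CPM and is too little read for its direction to be told.

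Of 3 tested cathepsins of the aspartic and serine classes none was called, with 2 at an unadjusted p under 0.05, 1 called by DESeq2 and a median log2 fold change of 0.47. CTSD, the main aspartic protease of lysosomes, measured 724, 1054 and 930 CPM for wild type libraries against 1447, 1395 and 1296 CPM for mutant libraries, replicates 1 to 3 in order. The mutant libraries all lay above the wild type libraries (log2 fold change 0.61, SE 0.15). The edgeR adjusted p was 0.0946. Over the edgeR alternatives it ranged from 0.0116 (total-count scaling) to 0.238, and the DESeq2 test gave an adjusted p of 0.0052. The serine carboxypeptidase CTSA measured 62 ± 5.05 CPM and 86.3 ± 3.02 CPM (log2 fold change 0.47 with an SE of 0.16, edgeR adjusted p = 0.219).

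Of 5 tested cystatin genes none was called, with 1 at an unadjusted p under 0.05, 1 called by DESeq2 and a median of 0.34 on the log2 scale. The secreted inhibitor gene cst3 measured 158, 200 and 155 CPM for wild type libraries against 108, 121 and 111 CPM for mutant libraries, replicates 1 to 3 in order and with no overlap (log2 fold change −0.59, SE 0.16). Its edgeR adjusted p was 0.124. Over the edgeR alternatives it ranged from 0.0955 (stricter count filter) to 0.326, and the DESeq2 test gave an adjusted p of 0.0205. The cytosolic type genes cst14a.1 and cst14a.2 had log2 fold changes of 0.43 (SE 0.31) and 0.34 (SE 0.24).

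Processing and sorting genes gave no call among 18 tested (3 at an unadjusted p under 0.05, DESeq2 1), and their median log2 fold change was 0.09. Legumain, LGMN, measured 428 ± 107 CPM for wild type libraries against 537 ± 47 CPM for mutant libraries (log2 fold change 0.32 with an SE of 0.18, edgeR adjusted p = 0.48). The adaptor gene GGA1, which carries mannose 6-phosphate receptors from the Golgi, measured 47.9 ± 9.81 CPM and 76.8 ± 7.02 CPM (log2 fold change 0.68 with an SE of 0.2, edgeR adjusted p = 0.163). Of the 7 tested class II pathway genes none was called (1 at an unadjusted p under 0.05, DESeq2 0), and their median was −0.068. The invariant chain gene cd74a, whose mammalian product is cut by cathepsin S, measured 264 ± 16.4 CPM and 252 ± 33.4 CPM (log2 fold change −0.07 with an SE of 0.14, edgeR adjusted p = 0.894), and its paralog cd74b 125 ± 16.3 CPM and 109 ± 7.27 CPM (log2 fold change −0.19 with an SE of 0.16, edgeR adjusted p = 0.678). The class II chain gene mhc2dab measured 65.2 ± 5.21 CPM and 48.1 ± 6.15 CPM (log2 fold change −0.44 with an SE of 0.18, edgeR adjusted p = 0.331).

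Both calls in these lists were among the 10 tested transcription factors, whose median log2 fold change was −0.21. TFEC, of the MITF and TFE family of factors, which regulate lysosomal genes in mammals, fell from 469, 461 and 415 CPM in replicates 1 to 3 of the wild type to 271, 235 and 227 CPM in those of the mutant. The genotypes were well apart (log2 fold change −0.88, SE 0.13, edgeR adjusted p = 0.0184). The call was lost on leaving out any library other than mutant replicate 1 (adjusted p up to 0.103). It was also lost with scaling by total counts only (adjusted p = 0.0691), and the direction held throughout. No other tested gene of that family was called. Their log2 fold changes ran from −0.35 (TFE3) to 0.99 (MITF, ENSDARG00000003732), with TFEB at −0.1 (SE 0.17, edgeR adjusted p = 0.876). SPI1 (ENSDARG00000000767), a gene of the myeloid factor PU.1, rose 1.55-fold from 334, 355 and 391 CPM to 557, 586 and 530 CPM (edgeR adjusted p = 0.0488). That call was lost under 8 of 13 alternatives, among them each of the 6 that leave out a library, with an adjusted p of up to 0.167. Its paralog spi1a overlapped, at 358 ± 29 CPM and 400 ± 64 CPM (log2 fold change 0.16, SE 0.15, edgeR adjusted p = 0.727). The macrophage factor IRF8 stood at 39.4 ± 2.35 CPM and 22.4 ± 5.86 CPM without a call (edgeR adjusted p = 0.173), as did NFATC1, which drives cathepsin K expression in mammalian osteoclasts, at 13.3 ± 4.59 CPM and 7.02 ± 2.18 CPM (edgeR adjusted p = 0.356).

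**Figure D4:**
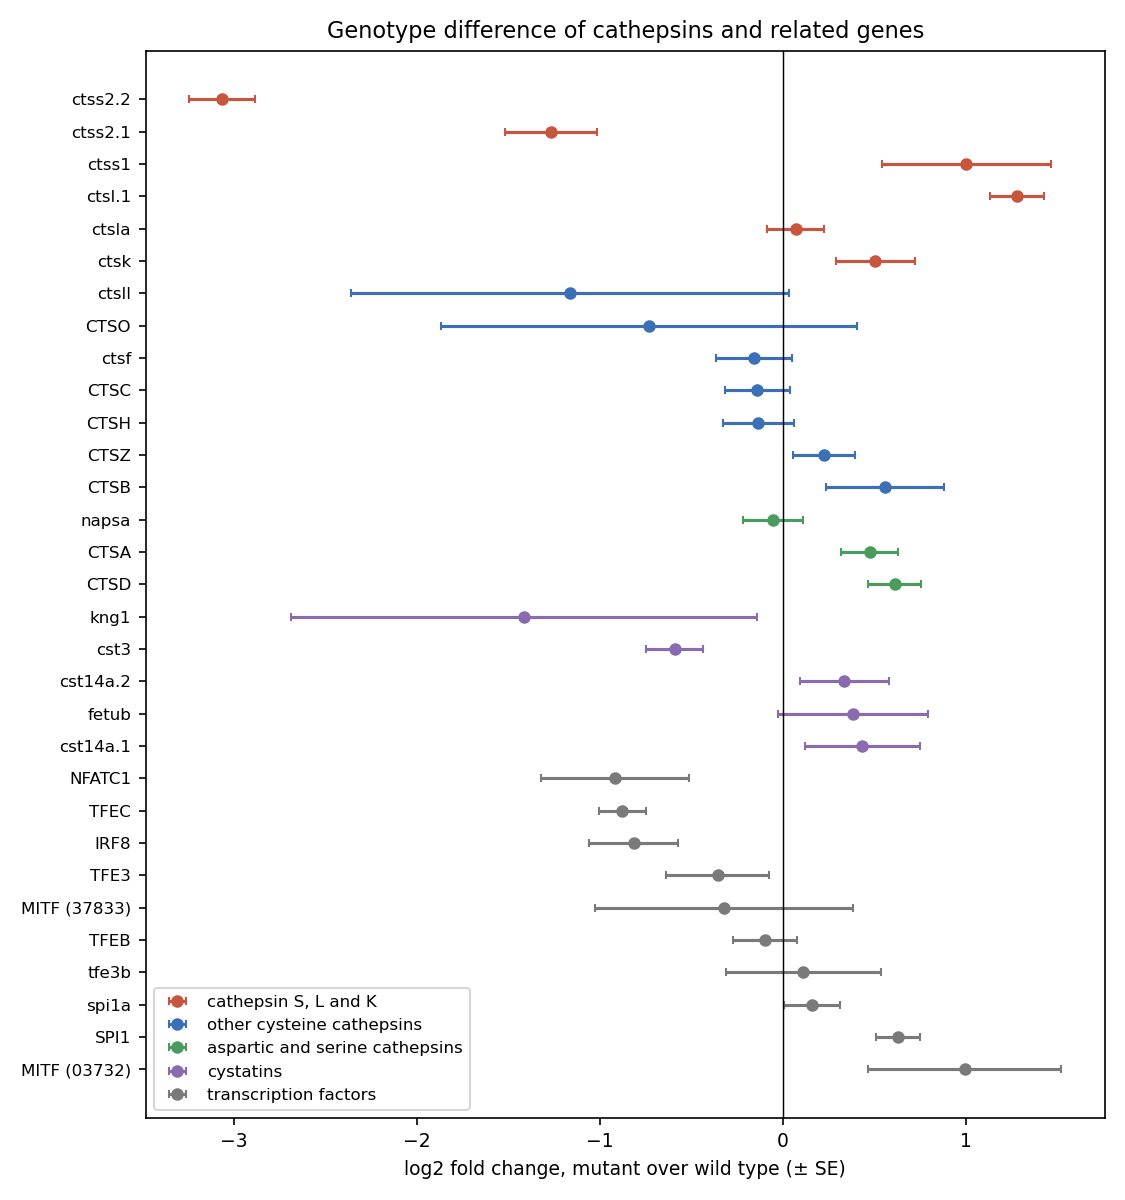
Log2 fold change, mutant over wild type, with its SE (horizontal axis) for the 6 measured cathepsin S, L and K genes (red) and the tested genes of 4 related lists (other colours), 1 gene per line; numbers in brackets are the last digits of gene identifiers that share a symbol. The value for ctss2.2 (−3.06) lies farthest from 0. Those for ctsl.1 (1.28) and ctss2.1 (−1.26) are alike in size and opposite in sign, and ctsll, CTSO and kng1 have wide errors.

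The cathepsin values were followed through the processing alternatives. The signs of ctss2.2, ctss2.1, ctss1, ctsl.1 and ctsk were the same under all 13. The log2 fold change of ctss2.2 ranged from −3.16 to −2.78, that of ctss2.1 from −1.45 to −0.95, that of ctss1 from 0.71 to 1.56, that of ctsl.1 from 1.21 to 1.56, that of ctsk from 0.28 to 0.79 and that of ctsla from −0.02 to 0.35. Scaling by total counts only moved the median of all genes from −0.03 to 0.24. Relative to that median, ctss2.2 was at −3.03 with TMM and −3.02 with total counts, ctsl.1 at 1.31 and 1.32, and ctsla at 0.099 and 0.12.

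**Figure D5:**
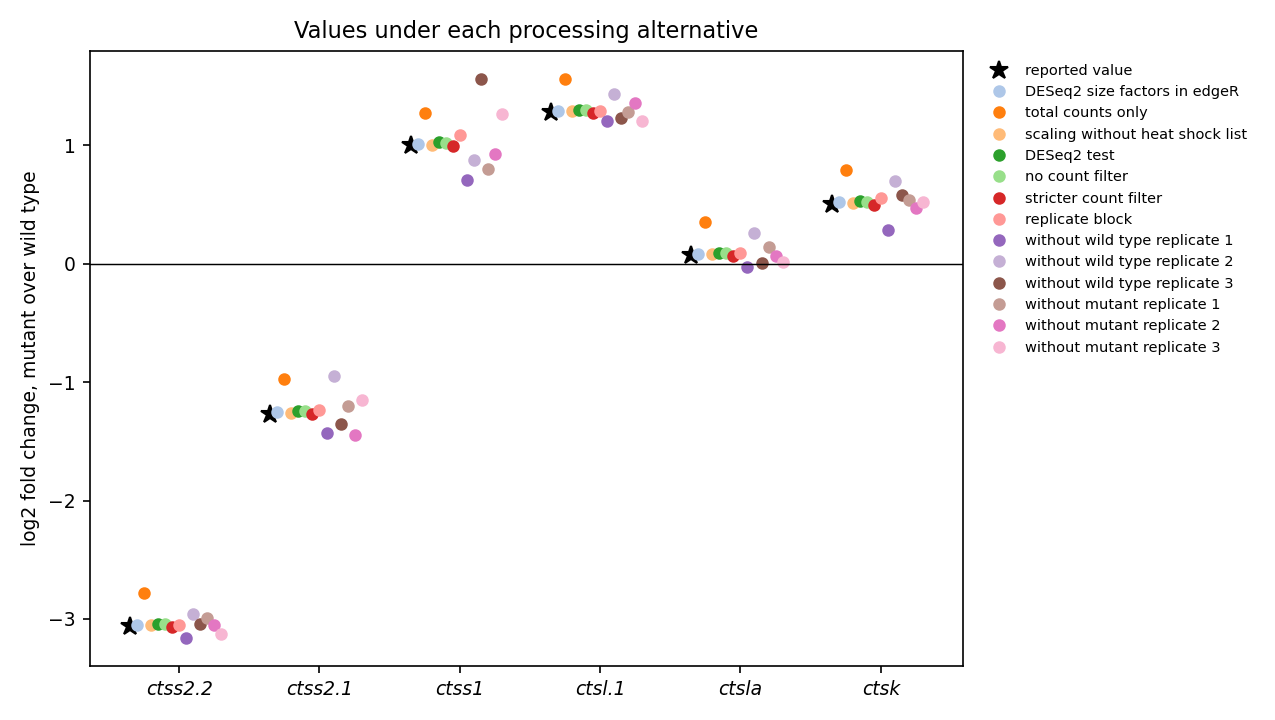
Log2 fold change, mutant over wild type (vertical axis), of 6 cathepsin genes under the reported processing (black star) and 13 alternatives (coloured points). Values for ctss2.2 and ctss2.1 stay below 0 and those for ctss1, ctsl.1 and ctsk above 0 in every setting. Those for ctsla range from −0.02 to 0.35 and are below 0 only without wild type replicate 1.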

How the data were processed

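Per the labels' protocols, cells were sorted from 3 independent pools of larvae per genotype, cDNA was amplified with a low-input kit, and about 10 Mreads of single reads were aligned to GRCz10. Bowtie and TopHat are the tools in the submitters' processing notes. The sources used here give no counting tool, strand rule, multimapping rule or annotation release. The authors deposited raw read counts per gene. Replicate pairs within a genotype differed by more than sampling noise.

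These counts were fitted with edgeR 4.0.16 (R 4.3.3): filterByExpr (minimum count 10, total 15), TMM scaling, glmQLFit and glmQLFTest on genotype, Benjamini-Hochberg adjustment over 16499 genes, threshold 0.05. SEs are Wald errors with the quasi-likelihood variance. DESeq2 1.42.0 and the alternatives of the closing section were run beside it. Symbols came from a table naming 26121 identifiers; listed symbols were matched exactly, then ignoring case or paralog suffix, and dropped above 3 identifiers.

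The members and lists were chosen with earlier results of these data known. Named are the 7 genes, the called and up to 4 lowest-p genes of each related list, the leading marker of a cell type where a result turns on it, and the 5 nearest profiles of ctss2.2 and ctsl.1 (mean log2 CPM 1 or more, prior count 2); not all are printed. Reads without molecular identifiers are not independent molecules. Sequence and transcript length comparisons, though planned, were not analysed here.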

Additional observations from a re-analysis of the deposited data

How the results depend on the processing

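Counts of calls depended on the test and the number of libraries: 51 genes were higher and 146 lower as reported, DESeq2 gave 437 and 509, a stricter count filter 78 and 200, total-count scaling 217 and 117, which turns the balance to higher, and leaving out single libraries 3 to 11 higher and 43 to 98 lower, both lowest when wild type replicate 3 was dropped. For the 6 related lists, the 1 higher call became 3 with DESeq2, 2 with total counts, and 0 without a count filter, with the replicate block and with any library left out. The 1 lower call became 2 with DESeq2, 0 with total counts, and 0 to 1 with a library left out. With the replicate number as a block, 13 genes were higher and 84 lower; same-numbered libraries did not deviate together (correlations −0.029, 0.0024 and −0.026), so the numbers were not taken as pairs.

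Total-count scaling moved ctss2.2 to −2.78, ctsl.1 to 1.56, ctsla to 0.35, the cathepsin L sum to 0.76 and the sum of all 7 to 0.57, and mutant means to 725 CPM for ctsk, 1384 CPM for ctsla and 17.4 CPM for ctss2.2; it also raised the median of all genes, as reported. The sign turned for ctsla without wild type replicate 1 (−0.023; leave-one-out range −0.023 to 0.26), and, with total counts, for napsa (0.22; 0.080 without wild type replicate 2, lowest −0.14 when other single libraries were left out), cd74a (0.20), CTSC (0.14) and cd74b (0.069), none of them called; the cause was not tested. Low counts limit ctsll and CTSO, and ctslb had none; ctss1, with 39 to 220 reads per library, varied between libraries by 57.7% (wild type) and 33.9% (mutant) of its mean.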
